A study of Homo sapiens with 6 samples.

Results

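10 genes of the oxygen-sensing pathway were followed in PANC-1, an established human pancreatic carcinoma line, with and without extracellular vesicles (EVs) from cancer-associated fibroblasts (CAFs), the activated fibroblasts of tumour stroma. They were 2 genes for alpha subunits of hypoxia-inducible factor (HIF), HIF1A and EPAS1, 3 genes for the prolyl hydroxylases that mark those subunits for destruction, EGLN1, EGLN2 and EGLN3, and 5 genes known as HIF targets, BNIP3, BNIP3L, NDRG1, P4HA1 and ANKRD37. They were taken by name from a table of raw counts, where each matched 1 row, and make 10 of its 32078 named genes. The 3 control libraries are PANC-1 with the treatment label none, and the 3 EV libraries carry the treatment label CAF-derived EVs. The protocol text describes EV treatment in the same words for all 6 libraries, so the groups rest on titles and treatment labels, and the sources used here give neither the dose nor the time of EV exposure. Nothing in the labels says that the replicates were separate cultures, so p-values measure a spread among libraries that may be technical. The libraries were bulk poly(A) RNA, in which fewer cells expressing a gene and less of its RNA per cell cannot be told apart.

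HIF is a pair of proteins, an alpha subunit and the constant partner ARNT. With oxygen present, the EGLN enzymes hydroxylate the alpha subunit, the VHL ubiquitin ligase binds the hydroxylated form, and the proteasome removes it. When oxygen is short the alpha subunit stays, enters the nucleus and binds a short DNA core near genes for glucose uptake, glycolysis, blood vessel growth, mitophagy and collagen processing. The alpha subunits are thus controlled mainly as proteins, and a transcript count does not measure them. Pancreatic carcinomas are known for poorly perfused, fibroblast-rich and often hypoxic tissue.

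In the EV libraries, HIF1A was higher and EPAS1, BNIP3L, NDRG1, P4HA1 and ANKRD37 were lower, while EGLN1, EGLN2, EGLN3 and BNIP3 were not called. NDRG1 moved most, 2.78-fold lower, and the other called genes moved between 1.23-fold (HIF1A higher, P4HA1 lower) and 1.79-fold (ANKRD37 lower). A gene was called at an adjusted p under 0.05 in edgeR's quasi-likelihood test over 14670 genes with enough counts. The 10 genes thus gave 1 higher and 5 lower calls, where 20.2% of all tested genes were called higher, 20.7% lower and 40.9% in either direction. Their median log2 fold change, EV over control, was -0.20, and that of all tested genes was -0.01. In 8 of the 10 the libraries of the groups did not overlap in CPM (library-scaled counts), as in 50.6% of all tested genes. The EV libraries were all above the controls in 2 (25.1% of tested genes) and all below in 6 (25.5%). With 1 library left out in turn, 3 or 4 of the 10 were called lower, 3 without EV library 3. Over all tested genes the lower calls fell as well, from 3036 to between 2421 and 2806. With 10 genes, these counts describe the genes and test nothing about the set. All 10 passed the filter on low counts, 9 with all 6 libraries at or above its limit of 0.385 CPM, and EGLN3 with its 3 EV libraries and 1 control library.

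**Figure D1:**
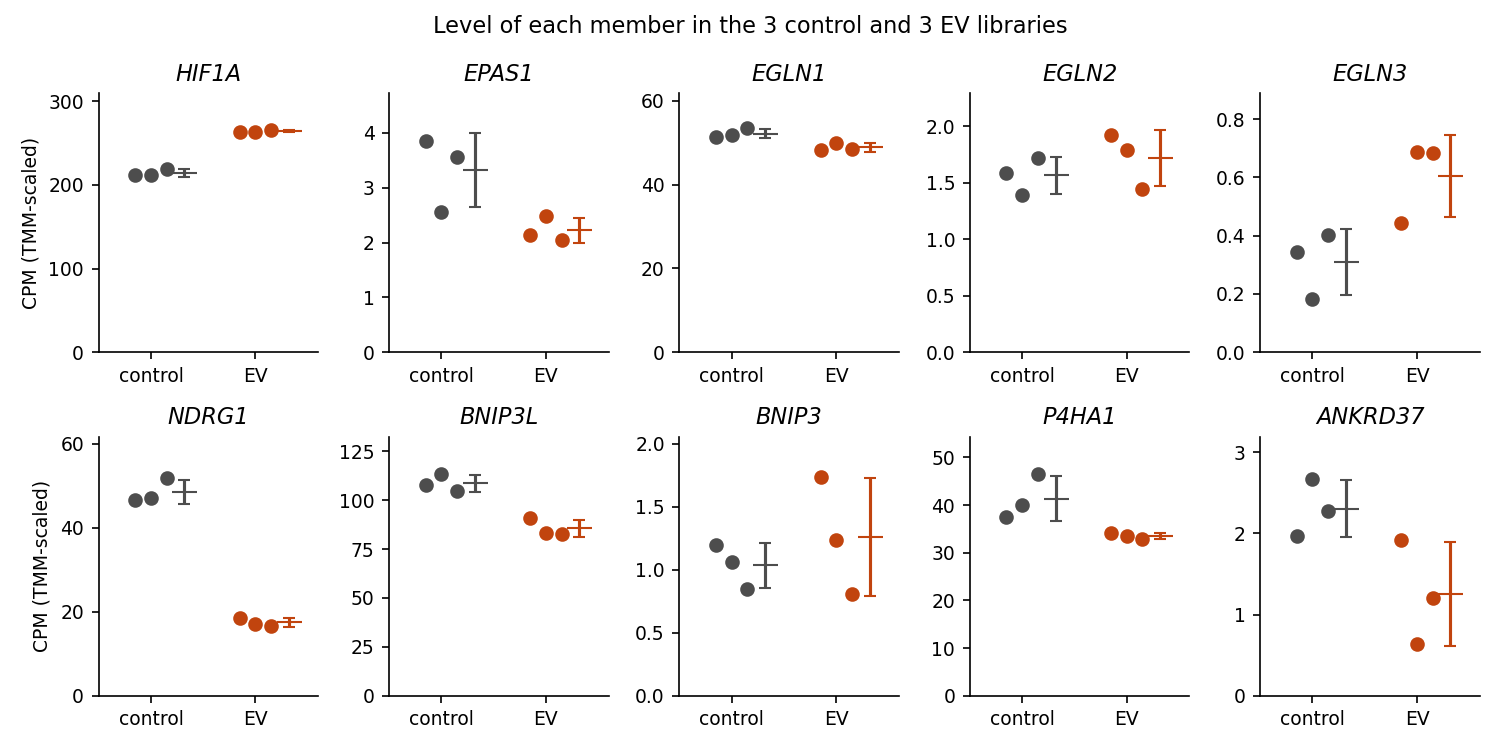
CPM of each of the 10 genes in the 3 control and 3 EV libraries, 1 point a library, with bars for the group mean ± SD; each panel has its own axis. The EV points lie above all control points for HIF1A and EGLN3 and below them for EPAS1, EGLN1, BNIP3L, NDRG1, P4HA1 and ANKRD37, and the groups overlap for EGLN2 and BNIP3.

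Promoter sequences show where the DNA core bound by HIF lies in front of these genes. The core was searched as ACGTG and as GCGTG on both strands in the 250 bases before the gene start, in RefSeq entries on GRCh38.p14. An ACGTG inside the palindrome CACGTG is found once on each strand and counted once per strand. For 8 of the 10 genes the table held a promoter (BNIP3L and NDRG1 were unmatched), and 7 of those 8 had a core in at least 1 of their promoters. Among promoters of the 10291 tested genes with an entry, 1 a gene, 57.1% had either core, 23.3% ACGTG, 45.3% GCGTG and 8.7% CACGTG. ANKRD37 is shown because it had 3 ACGTG matches, BNIP3 because it had the most matches, P4HA1 because it had a single one, HIF1A as the gene called higher and EGLN3 as the gene without a match. Capitals mark the cores, which read CACGT or CACGC where the match is on the other strand.
ANKRD37 promoter, chr4:185396591-185396840 (plus strand): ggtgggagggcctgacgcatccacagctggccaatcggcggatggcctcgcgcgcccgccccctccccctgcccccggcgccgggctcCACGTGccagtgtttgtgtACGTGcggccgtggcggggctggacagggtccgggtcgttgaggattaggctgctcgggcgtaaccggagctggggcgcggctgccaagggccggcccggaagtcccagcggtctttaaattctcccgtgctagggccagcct
BNIP3 promoter, chr10:131981924-131982173 (minus strand): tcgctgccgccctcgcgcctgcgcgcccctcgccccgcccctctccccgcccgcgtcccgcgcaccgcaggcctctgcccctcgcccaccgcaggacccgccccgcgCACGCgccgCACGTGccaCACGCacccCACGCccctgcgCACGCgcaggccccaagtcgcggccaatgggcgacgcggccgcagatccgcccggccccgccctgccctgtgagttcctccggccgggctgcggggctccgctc
P4HA1 promoter, chr10:73096867-73097116 (minus strand): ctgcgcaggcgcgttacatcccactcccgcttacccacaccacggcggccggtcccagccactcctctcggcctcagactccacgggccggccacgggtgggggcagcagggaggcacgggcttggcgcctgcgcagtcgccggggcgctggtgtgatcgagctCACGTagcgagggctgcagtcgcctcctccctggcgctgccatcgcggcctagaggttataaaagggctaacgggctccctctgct
HIF1A promoter, chr14:61695263-61695512 (plus strand): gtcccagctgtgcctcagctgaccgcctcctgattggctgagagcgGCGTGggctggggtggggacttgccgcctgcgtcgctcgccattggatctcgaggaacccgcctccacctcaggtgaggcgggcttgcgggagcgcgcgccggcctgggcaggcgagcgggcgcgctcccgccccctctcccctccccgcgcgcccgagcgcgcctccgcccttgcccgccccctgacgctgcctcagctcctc
EGLN3 promoter, chr14:33951075-33951324 (minus strand): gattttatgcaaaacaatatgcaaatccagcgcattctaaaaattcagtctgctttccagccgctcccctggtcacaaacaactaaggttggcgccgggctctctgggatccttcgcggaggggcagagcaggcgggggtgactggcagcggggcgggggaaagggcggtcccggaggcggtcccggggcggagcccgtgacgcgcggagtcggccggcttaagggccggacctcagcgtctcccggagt
In ANKRD37 the CACGTG began 162 bases and the further ACGTG 143 bases before the start. BNIP3 held 2 ACGTG matches, which form its CACGTG, and 4 GCGTG matches, all between 104 and 143 bases before the start. P4HA1 had its ACGTG at 86 bases and HIF1A its GCGTG at 204 bases, while a second HIF1A promoter had neither core. EGLN1 had 1 ACGTG at 13 bases, EPAS1 had 1 GCGTG at 117 bases, and EGLN2 had a CACGTG at 49 bases in the first of 2 promoters and no core in the other. BNIP3, with 6 matches, was not called, and P4HA1, with 1 match, was lower. Over all tested genes with an entry, either core was in 60.6% of promoters of genes called higher, 55.7% of those called lower and 56.2% of those not called. These promoters were rich in G and C (median 65.2% of bases over tested genes, 81.6% for BNIP3 and 71.6% for ANKRD37), and a match is a description and not a binding site.

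The alpha subunits came from genes of very unequal transcript level. HIF1A, the broadly expressed subunit, was at 212, 211 and 219 CPM in control libraries 1 to 3 and 263, 263 and 266 CPM in EV libraries 1 to 3. The EV libraries were all above the controls and lay close together. Their means were 264 ± 1.61 against 214 ± 4.35 CPM (SD, n = 3 each), and the log2 fold change was 0.30 ± 0.05 (SE; adjusted p = 0.000198). EPAS1, which encodes the HIF-2 alpha subunit and is prominent in endothelium and kidney, was at 3.86, 2.56 and 3.56 CPM in the controls and 2.15, 2.48 and 2.05 CPM in the EV libraries. The highest EV library stayed just below the lowest control. The means were 3.32 ± 0.679 and 2.22 ± 0.224 CPM, a log2 fold change of -0.58 ± 0.19 (adjusted p = 0.0187), on 51 to 97 counts a library. This call was lost when control library 1 (-0.46, adjusted p = 0.0874), control library 3 (-0.52, adjusted p = 0.0636), EV library 1 (-0.55, adjusted p = 0.0611) or EV library 3 (-0.52, adjusted p = 0.0723) was left out. Per length of transcript, EPAS1 made 1.37%, 0.919% and 1.23% of the summed alpha-subunit transcripts in the controls and 0.620%, 0.715% and 0.586% in the EV libraries. The EV shares were all lower, by 0.533 percentage points in the mean (exact two-sided permutation test, p = 0.1, the smallest 3 against 3 libraries allow). HIF3A, for the third alpha subunit, had 0 counts in all 6 libraries, which allows up to 0.138 CPM in the shallowest. Antisense genes at HIF1A held few reads, 1 to 4 counts a library for HIF1A-AS1 and 0 to 5 for HIF1A-AS3.

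The hydroxylase genes were not called singly. EGLN1, for PHD2, the main oxygen sensor that limits HIF, was at 51.4, 51.7 and 53.4 CPM in the controls and 48.2, 50.0 and 48.4 CPM in the EV libraries. All EV libraries were below all controls, yet the log2 fold change was only -0.10 ± 0.06 (95% interval -0.22 to 0.03; adjusted p = 0.235). EGLN2, for PHD1, was at 1.59, 1.39 and 1.72 CPM against 1.92, 1.79 and 1.45 CPM, and the groups overlapped (0.14 ± 0.22, interval -0.32 to 0.59; adjusted p = 0.646). On the same strand EGLN2 overlaps RAB4B-EGLN2 and AC008537.1, neither of which was counted as a gene of its own. Which reads were given to EGLN2 is thus unknown, and its level and share are uncertain. EGLN3, for PHD3, itself known as a HIF-induced gene, had 8, 5 and 11 counts in the controls and 12, 15 and 17 in the EV libraries. Every EV library was above every control in CPM (0.444, 0.688 and 0.683 against 0.343, 0.183 and 0.403), but the log2 fold change of 0.95 ± 0.40 missed the threshold (interval 0.10 to 1.79, unadjusted; adjusted p = 0.0671), and at these counts its level is poorly known. Only 1 control library reached the limit of the count filter. EGLN3 thus passed through its EV libraries, and its test and interval are no support for a difference. Per length of transcript, EGLN1 made 91.7% ± 1.06 of the 3 hydroxylase transcripts in the controls and 89.2% ± 0.602 in the EV libraries, a difference of -2.45 percentage points. The EGLN3 share was 1.42% ± 0.493 and 2.89% ± 0.649, a difference of 1.47 points. Neither the EGLN1 nor the EGLN3 share overlapped between groups (exact two-sided permutation test, p = 0.1 each, the smallest possible). The EGLN3 share rests on the same 5 to 17 counts a library, so it is no support for a difference either. The EGLN1 share drops in part because that of EGLN3 rises, so it adds no separate support. EGLN2 stood at 6.91% ± 0.570 and 7.89% ± 1.08 (exact permutation p = 0.3). Shares within a family are tied, since 1 rises when another falls, and without division by length the EGLN1 difference was -1.07 points and that of EGLN3 0.609 points.

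**Figure D2:**
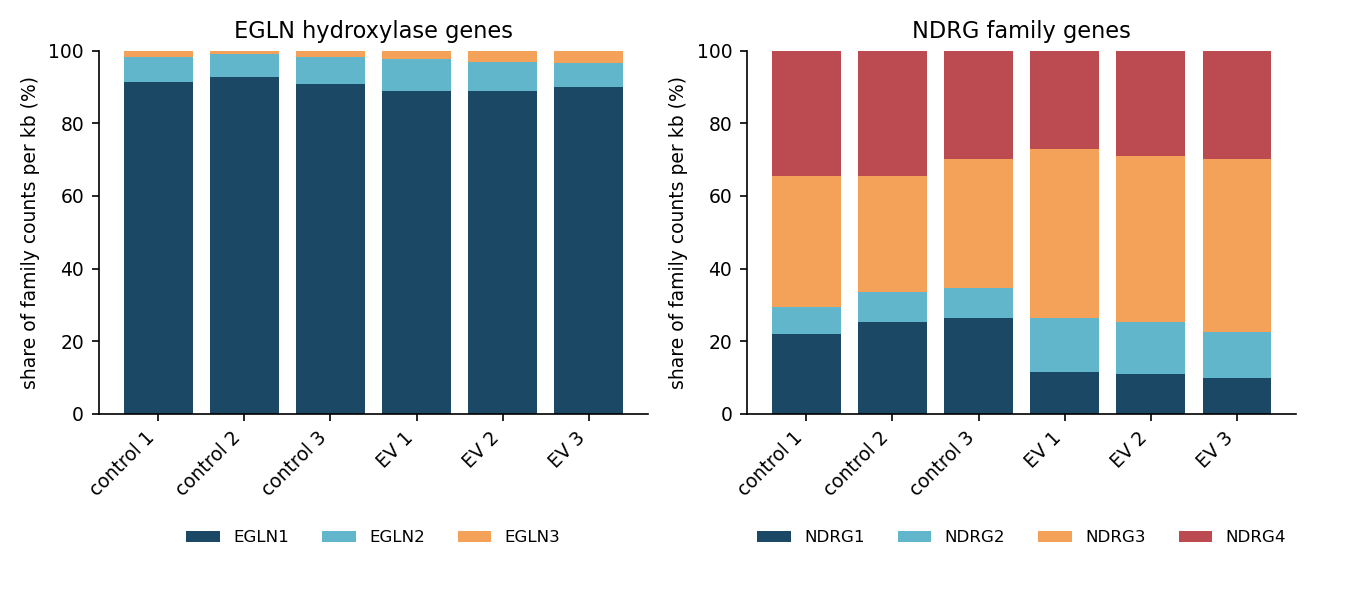
Stacked bars, 1 a library, of the share of each gene in its family's counts per kilobase of transcript, in percent, for the EGLN genes (left) and the NDRG genes (right). The EGLN1 share is lower and the EGLN3 share higher in all 3 EV libraries, and NDRG1 falls from a mean of 24.6% to 10.8% of the NDRG transcripts. EGLN3 passed the count filter through its EV libraries, so its share and the EGLN1 share tied to it are no support for a difference.

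Of the targets, NDRG1 stood apart in size. It encodes a stress- and hypoxia-responsive protein linked to differentiation and restraint of metastasis, and is widely used as a hypoxia marker. It was at 46.5, 47.0 and 51.8 CPM in the controls and 18.6, 17.1 and 16.6 CPM in the EV libraries. The groups were far apart against their spread, with means of 48.4 ± 2.91 and 17.4 ± 1.01 CPM. The log2 fold change was -1.47 ± 0.08 (95% interval -1.64 to -1.31; adjusted p = 6.02e-11), the 125th lowest of 14670 genes. The authors' deposited table gives NDRG1 at a log2 fold change of 1.46, control minus EV (q = 3.5e-65), and marks it; it marks none of the other 9 genes. Its family did not move as 1. NDRG2 rose from 12.1 ± 0.127 to 17.2 ± 1.05 CPM (log2 fold change 0.51 ± 0.09, adjusted p = 0.000188), and NDRG4 fell from 63.0 ± 7.08 to 44.9 ± 3.06 CPM (-0.49 ± 0.08, adjusted p = 7.22e-05). NDRG3 was at 54.2 ± 6.58 and 60.0 ± 3.23 CPM with overlapping groups (0.15 ± 0.08, adjusted p = 0.139; without control library 1 it was 0.23, adjusted p = 0.0298). Per length of transcript, NDRG1 made 22.0%, 25.2% and 26.5% of the 4 family members' transcripts in the controls and 11.5%, 10.8% and 9.92% in the EV libraries (exact two-sided permutation test, p = 0.1, the smallest possible).

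The mitophagy receptors BNIP3 and BNIP3L, paralogs on the outer mitochondrial membrane, differed in level and in outcome. BNIP3L was at 108, 113 and 105 CPM in the controls and 90.7, 83.1 and 82.8 CPM in the EV libraries. All EV libraries were lower, with means of 85.5 ± 4.48 against 109 ± 4.47 CPM and a log2 fold change of -0.34 ± 0.06 (adjusted p = 0.000194). BNIP3 had only 20 to 47 counts a library, at 1.20, 1.06 and 0.843 CPM in the controls and 1.74, 1.24 and 0.804 CPM in the EV libraries. EV library 1 was the highest of all 6 and EV library 3 the lowest, and the log2 fold change was 0.30 ± 0.29 (interval -0.31 to 0.91; adjusted p = 0.435). Without EV library 1 it was -0.02 (adjusted p = 0.976). Reads of BNIP3 are uncertain because of its pseudogene copies, of which BNIP3P11 held 7 to 13 counts a library. BNIP3L overlaps PNMA2 on the opposite strand, which held 914 to 1677 counts a library and was itself lower (-0.47, adjusted p = 5.92e-05). The library kit marks strand, but the sources used here do not give whether counting used it, so reads of such pairs may be shared.

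P4HA1, the catalytic alpha subunit of the collagen prolyl 4-hydroxylase, was at 37.4, 40.0 and 46.5 CPM in the controls and 34.2, 33.6 and 32.9 CPM in the EV libraries. Every EV library was below every control, and control library 3 was the highest. The means were 33.5 ± 0.630 and 41.3 ± 4.70 CPM, a log2 fold change of -0.30 ± 0.08 (adjusted p = 0.00495). Its paralog P4HA2 was lower as well, 24.0 ± 0.567 against 27.8 ± 1.44 CPM (-0.22 ± 0.08, adjusted p = 0.0294), a call lost without control library 2 (-0.17, adjusted p = 0.117) or without any 1 of the EV libraries (adjusted p between 0.0612 and 0.101). The P4HA1 share of the family's transcripts per length was 63.5% ± 3.24 and 62.2% ± 1.02 (exact two-sided permutation test, p = 0.8). P4HA3 had 0 counts in the controls and 1, 1 and 2 counts in the EV libraries, too few to compare.

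ANKRD37, a small ankyrin-repeat protein known as a hypoxia-induced transcript, was at 1.97, 2.67 and 2.27 CPM in the controls and 1.92, 0.642 and 1.21 CPM in the EV libraries. The groups nearly touched, since EV library 1 was just under the lowest control, and the EV libraries spread widely, from 14 to 52 counts. The means were 1.26 ± 0.642 and 2.30 ± 0.350 CPM, a log2 fold change of -0.84 ± 0.27 (adjusted p = 0.0181). The call was lost without control library 2 (-0.72, adjusted p = 0.0723), EV library 2 (-0.55, adjusted p = 0.101) or EV library 3 (-0.79, adjusted p = 0.0656), and without EV library 1 the value was -1.29 (adjusted p = 0.00238). ANKRD37 overlaps UFSP2 on the opposite strand, at 276 to 410 counts a library, which was lower too (-0.30 ± 0.09, adjusted p = 0.0141).

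**Figure D3:**
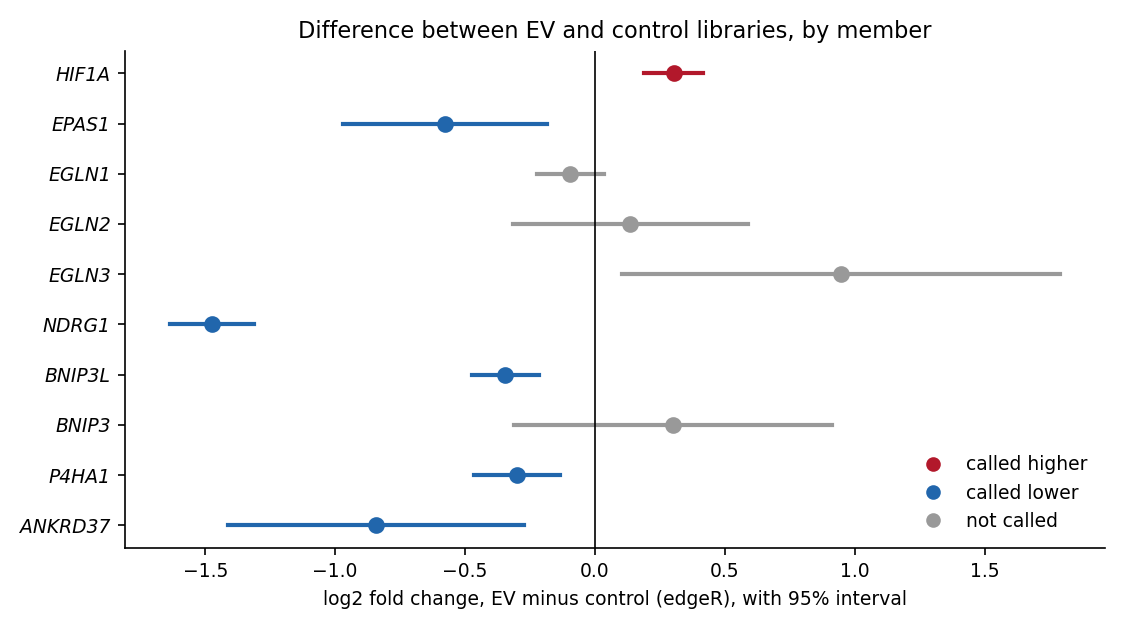
Log2 fold change, EV over control, of the 10 genes with unadjusted 95% intervals, by role. NDRG1 lies farthest from 0 at -1.47, and the EGLN3 interval of 0.10 to 1.79 leaves out 0 although its adjusted p is 0.0671. EGLN3 passed the count filter through its EV libraries, so its interval is no support for a difference.

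Between genes, levels can be compared only per length, here CPM per kilobase of transcript in the controls. HIF1A was highest at 54.1 ± 1.10, followed by BNIP3L at 30.1 ± 1.24, P4HA1 at 14.5 ± 1.65, NDRG1 at 12.9 ± 0.775 and EGLN1 at 7.35 ± 0.153. ANKRD37 followed at 2.02 ± 0.307, EPAS1 at 0.643 ± 0.131, EGLN2 at 0.555 ± 0.0594, BNIP3 at 0.362 ± 0.0628 and EGLN3 at 0.114 ± 0.0420. P4HA1 and NDRG1 lay within their spread, as did EPAS1 and EGLN2. The EGLN2 level is uncertain because of the overlapping genes named above. In the EV libraries NDRG1 was at 4.64 ± 0.270, below EGLN1 at 6.89 ± 0.140. Lengths are those of 1 annotated transcript a gene, and over all annotated exons NDRG1 (4.93) already stood below EGLN1 (7.18) in the controls.

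Genes with a profile over the 6 libraries most like a called gene were sought among the 9021 genes averaging 10 CPM or more, by the root mean square difference of centred log2 CPM. Nearest to HIF1A were GRB2 (0.0104), an adaptor of growth factor receptors, ATP8B2 (0.0106), STRBP (0.0169) and SRP54 (0.0182), with log2 fold changes from 0.30 to 0.31. Nearest to NDRG1 were KDM6B (0.0583), a histone H3K27 demethylase, BCAT1 (0.0665), an enzyme of branched-chain amino acid breakdown, TPM4 (0.0906), a tropomyosin, and SLFN5 (0.0986), with log2 fold changes from -1.52 to -1.40. The likeness is a description of 6 libraries in 2 groups.

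Around these genes, 118 further genes were listed, of which 99 were tested: 10 were higher, 55 lower and 34 not called, with a median log2 fold change of -0.27. That is 10.1% higher and 55.6% lower, beside 20.2% and 20.7% of all tested genes. The lists were chosen with earlier results of these data known, so these shares describe the listed genes and test nothing about them as a set. The 55 include TMEM45A, whose test is no support, as described below. Of the HIF partners and cofactors, 4 of 5 tested were lower and 0 higher (median -0.38): CITED2, which competes with HIF for the CBP and p300 coactivators, was at 163 ± 8.71 against 249 ± 3.24 CPM (-0.62 ± 0.06, adjusted p = 1.27e-07). CITED4 (-0.45, adjusted p = 6.73e-05) and CREBBP, the CBP gene (-0.38, adjusted p = 0.000131), were lower too. EP300 was at -0.21 (adjusted p = 0.0442) with overlapping groups, a call lost without control library 1 (adjusted p = 0.279), EV library 1 (0.236) or EV library 2 (0.144). ARNT, named for its role, was not called (-0.10 ± 0.07, adjusted p = 0.228), and ARNT2 held 0 to 7 counts a library.

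The genes for HIF turnover gave 5 higher and 3 lower calls of 16 tested (median -0.01). That is 31.2% higher and 18.8% lower, beside 20.2% and 20.7% of all tested genes. For 16 genes this is close to those shares, so the count says nothing particular to the list. Scaffold parts of the VHL ligase were among the higher ones: RBX1, the ring subunit, rose from 21.3 ± 1.03 to 32.1 ± 1.25 CPM (0.60 ± 0.08, adjusted p = 6.02e-06), CUL2, the cullin, from 57.9 ± 2.85 to 78.4 ± 3.04 CPM (0.44 ± 0.06, adjusted p = 2.14e-05), and ELOC, elongin C, by 0.37 ± 0.06 (adjusted p = 0.000158). SIAH2, a ligase for the EGLN proteins, was lower (-0.53 ± 0.07, adjusted p = 7.45e-06). VHL, named for its role, was at 43.3 ± 2.42 and 41.8 ± 1.35 CPM (adjusted p = 0.573). HIF1AN, which encodes FIH, the asparaginyl hydroxylase of HIF, was at 101 ± 4.03 and 102 ± 2.05 CPM (0.01 ± 0.06, adjusted p = 0.866).

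Among known target groups, more members were lower than higher in each. The share called lower ran from 53.3% (secreted and surface targets) to 81.8% (other targets), beside 20.7% of all tested genes. The share called higher was at most 14.3% (collagen and secretory targets), beside 20.2%. Of 7 tested mitochondrial targets 4 were lower and 0 higher (median -0.37), with 1 higher when control library 3 or EV library 3 was left out. MIR210HG, the host transcript of miR-210, was at 3.21, 4.28 and 2.75 CPM in the controls and 2.00, 0.596 and 0.884 CPM in the EV libraries (-1.51 ± 0.29, adjusted p = 0.000358). The groups did not overlap, EV library 1 was the highest of its group, and without it the log2 fold change was -2.18 (adjusted p = 2.35e-05). The mature miRNA was not measured by these poly(A) libraries. Its sequence, from RefSeq (GRCh38.p14), is shown as the product of that host, with the seed, bases 2 to 8, in capitals.
hsa-miR-210-3p: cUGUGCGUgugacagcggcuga
LONP1, the mitochondrial protease (-0.54, adjusted p = 5.54e-07), and MXI1, a MYC antagonist (-0.42, adjusted p = 0.000844), were lower, as was PDK1, the kinase that restrains pyruvate entry (-0.37 ± 0.11, adjusted p = 0.0117), which lost its call without EV library 2 (adjusted p = 0.0627) or 3 (0.0915). COX4I2 had 0 counts in all libraries.

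Of 7 tested collagen and secretory targets, 4 were lower and 1 higher (median -0.22). PLOD1, a collagen lysyl hydroxylase (-0.29, adjusted p = 0.00381), and ERO1A, an oxidase of the endoplasmic reticulum (-0.24, adjusted p = 0.00576), were lower. LOXL2, a collagen cross-linking oxidase, was the higher one (0.23, adjusted p = 0.00359). Of 12 chromatin and transcription targets, 8 were lower and 0 higher (median -0.42). KDM7A, a histone demethylase, fell from 12.6 ± 2.42 to 5.19 ± 0.0964 CPM (-1.28 ± 0.13, adjusted p = 4.81e-07), BHLHE40, a transcriptional repressor, fell by 0.97 on the log2 scale (adjusted p = 2.89e-08), and the demethylases KDM4B (-0.64, adjusted p = 6.34e-07) and KDM5B (-0.42, adjusted p = 2.47e-05) were lower.

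Of 15 tested secreted and surface targets, 8 were lower and 2 higher (median -0.34). VEGFA, the vessel growth factor, was at 153, 176 and 181 CPM in the controls and 66.2, 51.8 and 55.8 CPM in the EV libraries (-1.55 ± 0.08, adjusted p = 6.6e-11). ANGPTL4 (-1.26 ± 0.06, adjusted p = 4.01e-11), STC1 (-1.23 ± 0.08, adjusted p = 1.15e-09) and VLDLR (-1.11 ± 0.09, adjusted p = 2.31e-08), genes of lipid handling and calcium balance, were lower. The 2 higher genes, which the naming rule did not take and which were chosen after their values were seen, were TFRC, the transferrin receptor (0.81, adjusted p = 3.04e-06), and PGF (0.75, adjusted p = 0.0165). PGF was low, at 1.06 ± 0.0638 CPM in the controls and 1.78 ± 0.344 CPM in the EV libraries, and was not called at an adjusted p under 0.01. CA9, the carbonic anhydrase often used as a hypoxia marker, had 0 counts in all libraries. Of 23 glucose targets 14 were lower and 1 higher (median -0.23). SLC2A3, a glucose transporter, fell from 45.6 ± 5.28 to 13.7 ± 1.94 CPM (-1.73 ± 0.10, adjusted p = 2.01e-10), and HK2 (-0.67), PFKL (-0.52) and GYS1 (-0.52), for hexokinase 2, phosphofructokinase and glycogen synthase, were lower (adjusted p between 6.9e-07 and 1.56e-06). PGAM1, also named after its value was seen, was the higher one (0.16, adjusted p = 0.0282). The count of higher glucose genes was 0 without control library 2, EV library 1 or EV library 2, and 2 without EV library 3.

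Of 11 other targets, 9 were lower and 0 higher (median -0.42). DDIT4, the stress-induced mTORC1 inhibitor, fell from 493 ± 25.4 to 144 ± 35.8 CPM (-1.78 ± 0.11, adjusted p = 6.15e-10), ERRFI1, a feedback inhibitor of the EGF receptor, by 0.94 on the log2 scale (adjusted p = 8.6e-09), and KLHL24 was lower (-0.42, adjusted p = 0.000213). TMEM45A had 20, 22 and 17 counts in the controls and 0, 2 and 3 in the EV libraries. It is 1 of the 9 lower genes, but it passed the count filter only through the controls, so it had to differ and its test is no support. A 15-gene hypoxia classifier shares 6 of its genes with the 10 described here, and the rest all stand in the lists above. It thus adds no gene, and its calls repeat those already counted. Of its genes 14 were tested and 10 were lower (71.4%, beside 20.7% of all tested genes), 0 higher (median -0.31). PFKFB3 (-0.32, adjusted p = 0.000165) and ADM (-0.63, adjusted p = 0.000167) were among the lower ones. Without EV library 2 or EV library 3 the count of lower genes was 6. Several of these genes, VEGFA and DDIT4 among them, are also known to answer to stress signals other than low oxygen, so the list names say where a gene was taken from and not what moved it.

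**Figure D4:**
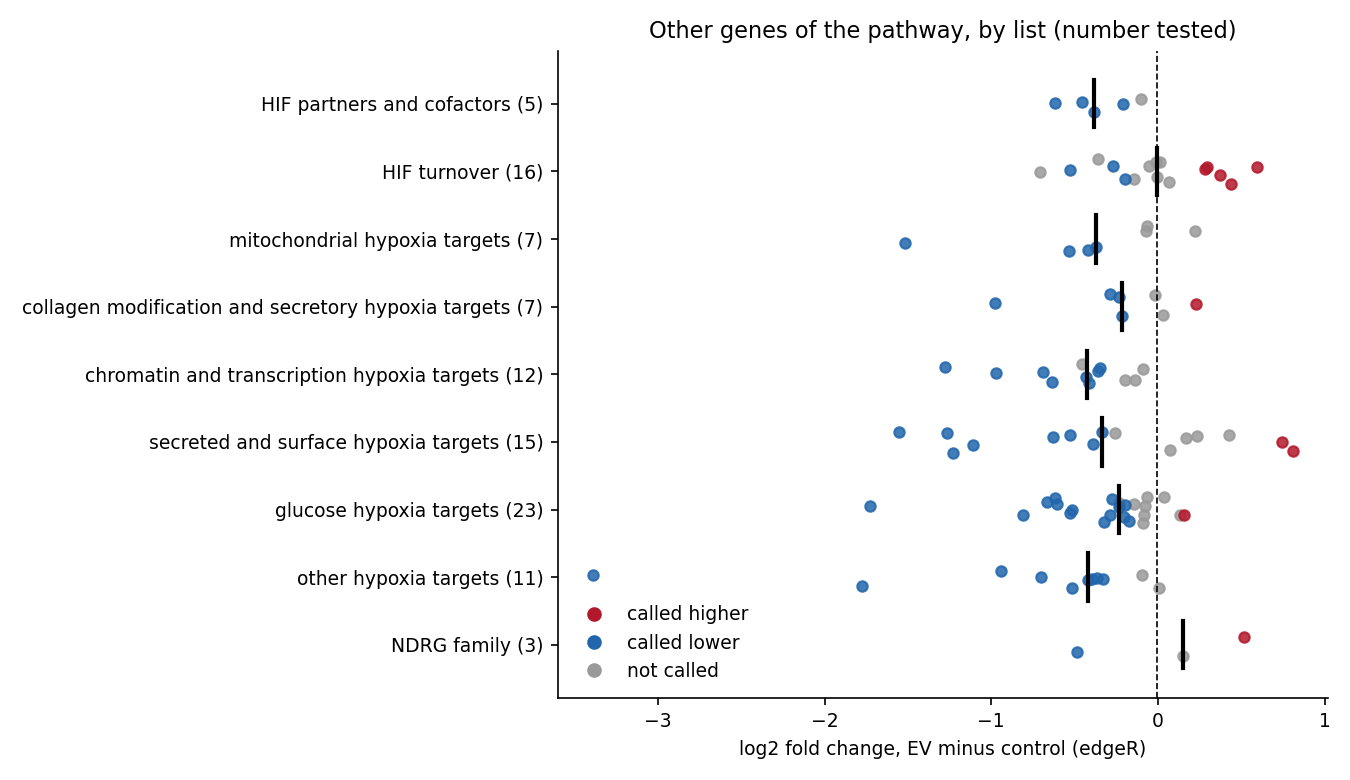
Log2 fold change, EV over control, of each tested gene of the lists around the HIF pathway, 1 point a gene, with the median of each list; the 10 genes of the report are left out. The hypoxia target lists have medians between -0.42 and -0.22, and the HIF turnover list has a median of -0.01.

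Total counts of named genes ranged from 21647493 to 27498709 a library, and 3 counts, the most that a count of 0 allows, correspond to 0.110 to 0.138 CPM; such floors cover counting error only. No library stood apart over the tested genes, and no pair held counts that agreed within sampling noise (chi-square per degree of freedom 4.93 to 9.81 within groups). The summed fibroblast markers were at 120 to 146 CPM in the controls and 199 to 219 CPM in the EV libraries. COL1A2 made most of that sum, 114 ± 12.6 and 186 ± 9.64 CPM, and was higher (0.71). ACTA2 was lower (-0.91), COL3A1 was not called, and DCN, LUM, THY1 and POSTN were at 0 in all 6. PDGFRB had 3, 5 and 13 counts in the controls and 0, 0 and 2 in the EV libraries. PDGFRA had 3, 0 and 3 counts in the controls and 0 in each EV library, and COL1A1 held 1 to 3 counts a library. FAP, also listed, was not matched. The part of these markers in the results on collagen genes was not tested. Immune markers summed to 1.10 to 1.74 CPM and endothelial markers to 4.28 to 5.36 CPM over all libraries, with PTPRC, TEK and KDR at 0. Of the 7 carcinoma epithelium markers, EPCAM and CDH1 were at 0 in all 6 libraries and 4 were tested. KRT7 was not tested, at 5, 10 and 7 counts in the controls and 1, 2 and 3 in the EV libraries. MUC1, a surface mucin, was lower in the EV libraries (19.9 ± 0.846 to 7.81 ± 1.20 CPM, log2 fold change -1.35 ± 0.11, adjusted p = 1.89e-08), as was the keratin KRT19 (391 ± 25.0 to 280 ± 14.7 CPM, -0.48 ± 0.06, adjusted p = 5.78e-06). The keratins KRT8 (adjusted p = 0.0687) and KRT18 (adjusted p = 0.132) were not called and made most of the list's sum, 4562 to 5085 CPM in the controls and 4820 to 5301 CPM in the EV libraries. The part of these markers in the lower calls among the hypoxia targets was not tested.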

How the data were processed

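Poly(A) RNA of 6 libraries was sequenced. The authors deposited a raw count table of 32453 features; the 375 features without a gene name (0.099% to 0.134% of counts) were left out. Per the submitters' processing notes, TopHat, RSEM and hg19 were used, with no versions given. A second table the authors deposited holds their comparison, with log2 values and fold changes, p-values and q-values, used only where named; it is read as control minus EV from its own group means.

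Counts were tested with edgeR 4.0.16 (R 4.3.3), by glmQLFit and glmQLFTest, with TMM scaling, the filterByExpr filter, a prior count of 0.125 and Benjamini-Hochberg adjustment over all 14670 tested genes. CPM uses TMM factors; ± is SD over 3 libraries for CPM and SE for log2 fold changes. Transcript lengths and overlaps come from GENCODE v29 and promoter and miRNA sequences from RefSeq; since the files use hg19, no coordinates of the files were used. Family shares were compared by exact two-sided permutation of libraries. The test was also run on simulated counts. That simulation changed far fewer genes than were called here, so it does not check scaling or false calls at such a wide difference.

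The 10 genes and the lists were chosen with earlier results of these data known. Named were all 10 genes, up to 4 called genes with the lowest adjusted p from each list, family members, undetected genes, and the 4 nearest profiles of the called genes with the highest and lowest fold change. ARNT, ARNT2, VHL, TFRC, PGF, PGAM1, HIF1A-AS3, BNIP3P11 and overlapping genes lie outside this rule and were named after their values were seen. A gene that the rule takes is not reported here by name. Alternatives were other scalings and filters, each library left out, a replicate block, limma-voom (limma 3.58.1), DESeq2 1.42.0, stricter thresholds, undivided counts for shares and, added after seeing the data, all-exon lengths.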

Additional observations from a re-analysis of the deposited data

How the results depend on the processing

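HIF1A, BNIP3L, NDRG1 and P4HA1 kept direction and call in all 14 alternative fits, with log2 fold changes of 0.28 to 0.32, -0.38 to -0.31, -1.52 to -1.42 and -0.37 to -0.21. With libraries left out in turn, EPAS1 ranged from -0.74 to -0.46 (adjusted p up to 0.0874) and ANKRD37 from -1.29 to -0.55 (up to 0.101), and both lost their calls in some of these fits; BNIP3 ranged from -0.017 (without EV replicate 1) to 0.55 and EGLN3, never called, from 0.67 to 1.20. The number of the 10 genes called lower then ranged from 3 to 4, and that of all tested genes from 2421 to 2806. At an adjusted p under 0.01, 3 of the 10 genes were lower. The share of all tested genes at that threshold is not given here, so this count says nothing particular to the 10. At an adjusted p under 0.05 and at least 1.5-fold, 2 of the 10 were called, 0 higher and 2 lower, as were 1628 of all tested genes (538 higher, 1090 lower) and 24 of the list genes (3 higher, 21 lower). HIF1AN, near 0, turned to -0.0052 under upper-quartile scaling (adjusted p = 0.952) and ranged from -0.014 (without control replicate 2, adjusted p = 0.889) to 0.044 with a library left out. EP300 also lost its call with library totals alone (adjusted p = 0.0557) and DESeq2 (0.0556), and P4HA2 with no count filter (0.0783). Glucose list genes called higher numbered 0 to 2. No pairing by replicate number was seen (correlations of same-numbered deviations -0.021, -0.0090 and -0.011), though 3 libraries a group cannot exclude it. With the replicate block 5743 genes were called, and of the 10 genes 6, 1 higher and 5 lower. Scaling moved the median of all tested genes by less than 0.1 (range -0.03 to 0.01). EGLN3 was not tested at 1 CPM in 3 libraries. EGLN2, EGLN3, BNIP3 and ANKRD37 held 5 to 73 counts a library, which limits their precision.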
